A study of Arabidopsis thaliana and Arabidopsis lyrata subsp. lyrata and Arabidopsis halleri subsp. gemmifera with 10 samples.

Results

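CHI (AT2G43570) and ChiC (AT4G19810) are chitinase genes of Arabidopsis, and their transcript levels were followed in mature leaves of 3 Arabidopsis species and 2 interspecific hybrids. Each gene was read from the probe set that names it alone. Each had 1 such probe set, so that these were 2 of the 13286 genes named in this way on the array. The genes were chosen by their measured levels across the 5 groups, so their levels and differences are given as a description, without p-values. Leaves were taken before flowering from plants kept at 22 C with 16 h of light and 8 h of dark. The 5 groups were the A. thaliana-A. halleri hybrid, the A. thaliana-A. lyrata hybrid, A. halleri (subspecies gemmifera), A. lyrata (subspecies lyrata) and A. thaliana (Col), with 2 biological replicates each and 1 array per replicate. The labels name no pathogen and no treatment. The direction of the crosses, the ploidy of the hybrids and the number of plants behind a replicate are not stated in the sources used here.

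Chitinases cut chitin, the polymer of N-acetylglucosamine that stiffens fungal cell walls and insect cuticles and that plants do not make. They act against fungi directly, and the fragments they release are sensed at the plant cell surface by LysM receptors, which start defence signalling. Plant chitinases fall into families of unrelated folds: CHI belongs to glycoside hydrolase family GH19, and ChiC, a class V chitinase, to family GH18. In leaves of A. thaliana many genes of both families are known for transcripts that are scarce in healthy tissue and accumulate after infection or hormone treatment.

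Signals are in arbitrary units after rescaling, which brought the trimmed mean of each array to 500, and group values are means ± SD over 2 arrays. Differences are on the log2(signal + 9.24) scale ± SE from limma, a linear model fitted to all probe sets at once, and this scale understates changes of weak signals. A signal of 104 marks the level that at least 1 group had to reach on average for a probe set to be tested. As deposited, the arrays were in 2 scale classes: A. thaliana replicate 1 and all arrays of A. halleri and of its hybrid had a trimmed mean of 500, and the others, called the unscaled class, had means between 24.3 and 136. After rescaling, the hybridization control transcripts, which are added to each sample, were 2.32 and 2.67 times as bright in A. halleri, and 3.47 and 3.82 times in A. lyrata, as on the geometric mean of the A. thaliana arrays. On a scale set by these controls the median over all probe sets was -1.02 for A. halleri minus A. thaliana and -1.57 for A. lyrata minus A. thaliana, against 0.32 and 0.31 on the scale used here. Of 18 listed genes of leaf photosynthesis 3 were measured, the nuclear genes RCA, SBPASE and PRK, and their lowest single signal was 6505. The summed signal of root markers, 2 of 5 measured (PYK10 and EXPA7), was 93.9 to 103 in the A. halleri hybrid, 111 to 139 in the A. lyrata hybrid, 188 to 286 in A. halleri and 204 to 275 in A. lyrata, against 22.3 to 59.1 in A. thaliana. The part of root-type transcripts in the results below was not tested. No flower or seed storage marker was measured here.

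CHI had a high signal in A. thaliana, in A. halleri and in their hybrid, and a low one in A. lyrata and in the A. lyrata hybrid. The signals were 738 and 1321 in the A. halleri hybrid (mean 1029 ± 412) and 17.8 and 52.6 in the A. lyrata hybrid (35.2 ± 24.7). They were 2385 and 1492 in A. halleri (1939 ± 632), 70.8 and 60.5 in A. lyrata (65.6 ± 7.26), and 2876 and 1866 in A. thaliana (2371 ± 714). In order of level the groups ran A. thaliana, A. halleri, A. halleri hybrid, A. lyrata and A. lyrata hybrid. The arrays of A. thaliana and A. halleri overlapped, and no other neighbours in this order did. All 4 arrays with an A. lyrata genome lay below the signal of 104, and all 6 others at or above 738.

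**Figure D1:**
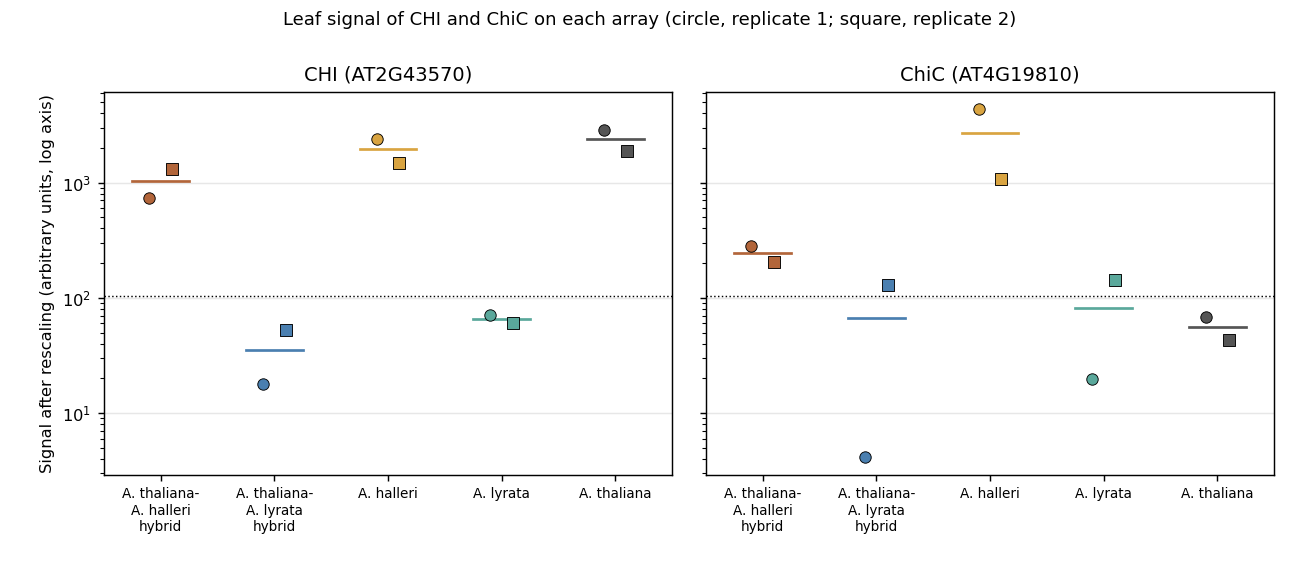
Signal of CHI (left) and ChiC (right) on each of the 10 arrays, on a log axis in arbitrary units, with circles for replicate 1, squares for replicate 2, a bar at each group mean and a dotted line at the signal of 104 used to select probe sets. CHI lies between 738 and 2876 in A. thaliana, A. halleri and their hybrid and at or below 70.8 elsewhere, whereas ChiC is at 4352 and 1073 in A. halleri and at or below 284 elsewhere.

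Between species, CHI in A. halleri exceeded CHI in A. lyrata by 4.67 ± 0.47 (25.4-fold). It was lower in A. lyrata than in A. thaliana by 31.1-fold, a log2 difference of -4.96 ± 0.47. The difference between A. halleri and A. thaliana was -0.30 ± 0.47, smaller than its error. Both A. lyrata arrays are of the unscaled class. Against the A. thaliana array of that class alone, the log2 difference for A. lyrata was -4.65, and A. halleri, set against the A. thaliana array of its own class, gave -0.61. No array class holds both A. halleri and A. lyrata, and with class as a block their difference was 4.04 ± 0.77. The probes were designed on A. thaliana sequence, so a smaller amount of CHI transcript in A. lyrata and weaker binding of its transcripts to the probes cannot be told apart. The same holds for every lower signal of A. halleri or A. lyrata given below. For the hybrids, which also carry A. thaliana genes, the part of probe binding in lower signals was not tested. In whole leaves, fewer cells of a type and less RNA per cell also cannot be told apart.

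ChiC was high in A. halleri alone. Its signals were 284 and 206 in the A. halleri hybrid (245 ± 55.0) and 4.14 and 129 in the A. lyrata hybrid (66.5 ± 88.2). They were 4352 and 1073 in A. halleri (2713 ± 2319), 19.7 and 144 in A. lyrata (81.9 ± 87.9), and 68.9 and 43.1 in A. thaliana (56.0 ± 18.2). Both A. halleri arrays lay above all others, both arrays of its hybrid came next, and the arrays of the other 3 groups overlapped. The residual SD was 1.11 for ChiC and 0.47 for CHI on the log2 scale, so each ChiC value carries the larger error. Replicate 1 of the A. lyrata hybrid and of A. lyrata, at 4.14 and 19.7, lay near the bottom of the scale and far below replicate 2.

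ChiC in A. halleri exceeded ChiC in A. thaliana by 5.09 ± 1.11 (34.0-fold) and ChiC in A. lyrata by 5.03 ± 1.11 (32.6-fold). The first difference was 4.08 without A. halleri replicate 1 and 6.09 without replicate 2, and the second was 3.82 without A. lyrata replicate 1. Within the scaled class, A. halleri exceeded the single A. thaliana array by 4.80. A. lyrata and A. thaliana differed by 0.06 ± 1.11. In signal, A. lyrata was thus low in both genes, A. halleri high in both, and A. thaliana high in CHI alone. For ChiC too, less transcript in A. lyrata and weaker binding to the probes cannot be told apart.

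The levels were then read beside those of the other chitinase genes. The list held 24 loci, 14 of family GH19 and 10 of family GH18, assigned from general knowledge of the A. thaliana genome. Of these 15 were measured, 10 of GH19 and 5 of GH18, CHI and ChiC included; 4 were present only in 2 probe sets that name several genes, and 5 were not analysed here. Of the 13 other chitinase genes measured, 9 passed the filter on low signals, 7 of GH19 and 2 of GH18. AT2G43600, AT1G56680, AT4G19730 and AT4G19740 did not pass, and their signals ranged up to 8.52, 61.6, 60.1 and 116 over the 10 arrays. A gene that passed through only 1 group where it is high had to differ between groups, so the counts below are no evidence about the family as a whole. AT2G43580 and AT4G19820 passed through A. halleri alone and AT4G19720 through A. lyrata alone, and calls of these genes as higher in that species were favoured by the filter and support nothing. AT2G43620 passed through A. lyrata and the A. halleri hybrid alone. Calls of it as higher in these groups were likewise favoured by the filter and support nothing.

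In the A. thaliana gene order CHI is followed directly by 5 further GH19 genes, AT2G43580 to AT2G43620, all of them measured, and 4 of these passed the filter. AT2G43590 had the widest range of the group. Its signals were 2472 and 2245 in the A. halleri hybrid, 143 and 198 in the A. lyrata hybrid, 19226 and 42726 in A. halleri, 282 and 379 in A. lyrata, and 69.2 and 46.7 in A. thaliana. No 2 groups overlapped. AT2G43580 had signals of 108 and 64.3 in the A. halleri hybrid, 12.1 and 7.64 in the A. lyrata hybrid, 705 and 1415 in A. halleri, 7.47 and 8.47 in A. lyrata, and 13.5 and 2.75 in A. thaliana. Like ChiC, it was high in A. halleri, second in the hybrid of A. halleri and low on all 6 other arrays.

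The last genes of the row ran differently. AT2G43610 was highest in A. lyrata, at 317 and 226, against 56.2 and 3.40 in A. thaliana; the hybrids and A. halleri lay between 76.9 and 120. AT2G43620 was highest in the A. halleri hybrid, at 284 and 242, followed by A. lyrata at 155 and 198, and it was at 52.2 and 15.0 in A. halleri and 57.5 and 32.1 in A. thaliana. None of the 5 genes shared the CHI pattern of a high signal in both A. thaliana and A. halleri.

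ChiC also lies in a row of chitinase genes, between the GH18 genes AT4G19800 and AT4G19820, and 8 of its neighbours in the A. thaliana gene order, AT4G19720 to AT4G19820, are on the chitinase list. Of these AT4G19720 and AT4G19820 passed the filter. AT4G19820 had signals of 43.9 and 6.58 in the A. halleri hybrid, 63.3 and 35.4 in the A. lyrata hybrid, 71.3 and 206 in A. halleri, 31.5 and 66.3 in A. lyrata, and 49.6 and 1.47 in A. thaliana. Its A. halleri arrays lay above all others, by a small margin for replicate 1, and no comparison called it. AT4G19720 had its highest signals in A. lyrata, at 155 and 93.1, and lay at or below 25.9 on the 8 other arrays, A. halleri included.

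**Figure D2:**
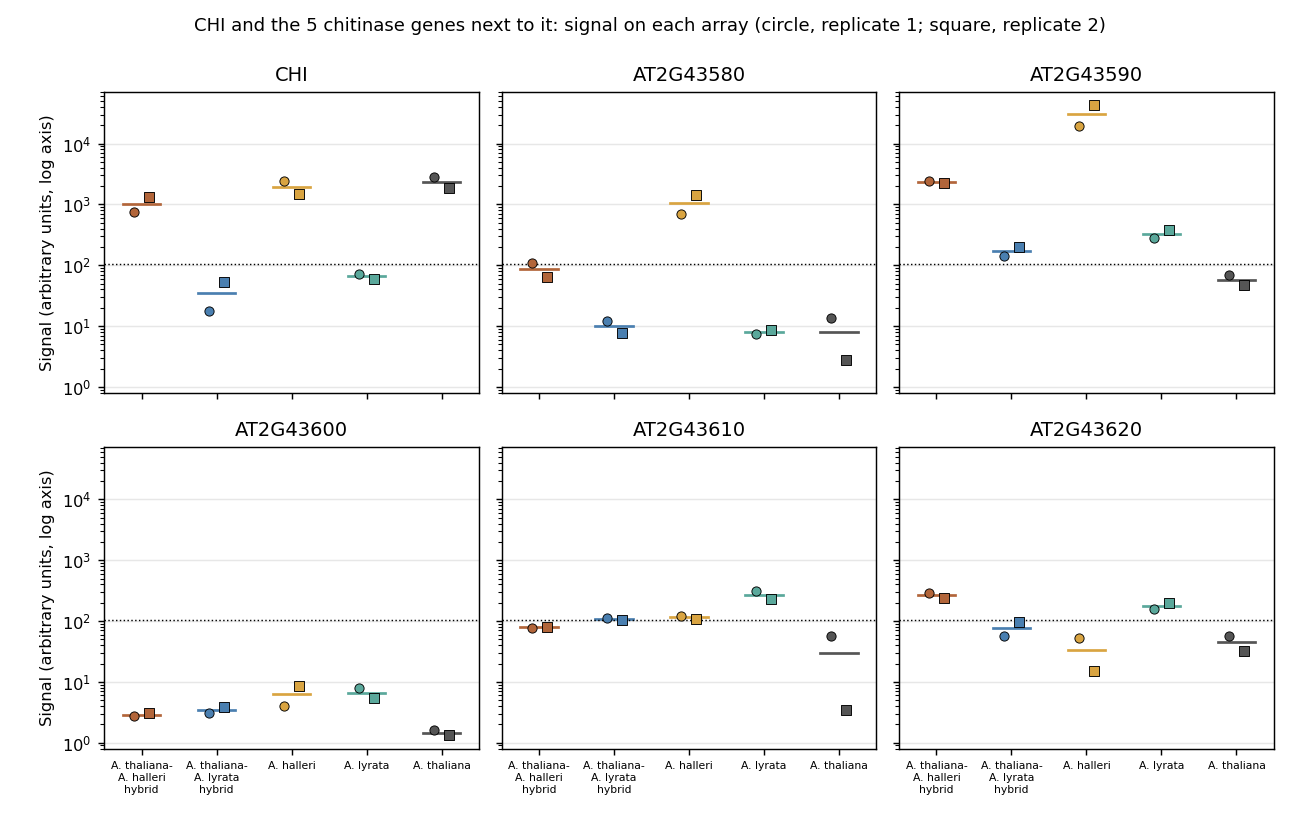
Signal of CHI and of the 5 GH19 chitinase genes that follow it in the A. thaliana gene order, on each array, on a shared log axis in arbitrary units (circles, replicate 1; squares, replicate 2; bars, group means; dotted line, signal of 104). AT2G43590 reaches 42726 in A. halleri, against at most 69.2 in A. thaliana, and AT2G43600 stays at or below 8.52 on every array.

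In A. halleri against A. thaliana, 4 of the 9 other chitinase genes that passed were called higher and 0 lower by limma at a Benjamini-Hochberg adjusted p under 0.05; over all probe sets 39.7% were called, 23.5% higher and 16.2% lower. Their median difference was 1.46, against 0.32 over all probe sets. The 9 genes include AT2G43580 and AT4G19820, which passed the filter through A. halleri alone, so neither count nor median is evidence here. AT2G43590 was higher by 8.76 ± 0.39 (433-fold, adjusted p = 3e-06) and AT2G43580 by 5.93 ± 0.61 (61.1-fold, adjusted p = 0.000182). AT2G43610 was higher by 2.11 ± 0.67 (adjusted p = 0.0328), a call lost in 11 of 20 other settings, those on scale class and on leaving out either A. halleri array among them. AT3G47540 was higher by 1.46 ± 0.35 (adjusted p = 0.00977). On the scale of the hybridization controls AT2G43590 and AT2G43580 remained called higher, at 7.55 and 5.15. AT2G43610 and AT3G47540 were no longer called, at 1.23 and 0.16, and AT2G43620 and AT4G01700 were called lower, at -1.50 and -1.16. Of all 16522 probe sets tested on that scale, 718 were called higher and 7316 lower. CHI was then at -1.60 and ChiC at 3.88.

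In A. lyrata against A. thaliana 4 of the 9 were called higher and 3 lower, with 43% of all probe sets called, 25.8% higher and 17.2% lower. The genes called lower, as CHI was in level, were AT1G02360 at -2.16 ± 0.73 (adjusted p = 0.0382), AT3G47540 at -1.44 ± 0.35 (adjusted p = 0.00918) and AT4G01700 at -1.06 ± 0.31 (adjusted p = 0.0197). The genes called higher were AT2G43610 at 3.27 ± 0.67 (adjusted p = 0.00449), AT2G43590 at 2.34 ± 0.39 (adjusted p = 0.00177), AT2G43620 at 1.81 ± 0.55 (adjusted p = 0.0248) and the GH18 gene AT4G19720 at 2.01 ± 0.68 (adjusted p = 0.0377). On the scale of the hybridization controls only AT2G43610 was still called higher, at 1.86, and the 3 lower genes remained called, at -3.58, -3.23 and -2.90. Of all 16522 probe sets tested on that scale, 423 were called higher and 10057 lower. AT4G19720 did not pass the filter on that scale. Within the unscaled class, to which both A. lyrata arrays belong, all 3 lower calls were lost, and those of AT1G02360 and AT4G01700 were also lost with scale class as a block. The higher call of AT4G19720, which the filter favoured, was lost in both of these settings. The calls of AT1G02360, AT4G01700, AT2G43620 and AT4G19720 were lost when either A. lyrata array was left out, and that of AT3G47540 without A. lyrata replicate 2. Both comparisons use the same A. thaliana arrays.

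In A. halleri against A. lyrata 5 of the 9 were called higher and 2 lower, with 15.5% of all probe sets called, 8.13% higher and 7.38% lower. AT2G43590 was higher by 6.42 ± 0.39 (adjusted p = 4.7e-05), AT2G43580 by 5.87 ± 0.61 (adjusted p = 0.000518), AT1G02360 by 3.61 ± 0.73 (adjusted p = 0.0108), AT3G47540 by 2.90 ± 0.35 (adjusted p = 0.001045) and AT4G01700 by 1.205 ± 0.31 (adjusted p = 0.0266). AT2G43620 was lower, at -2.26 ± 0.55 (adjusted p = 0.0233), as was AT4G19720, at -3.14 ± 0.68 (adjusted p = 0.0140). CHI and ChiC, at 4.67 and 5.03, lay on the side of the 5 higher genes. AT2G43590 and AT3G47540 kept their calls under each of the 20 other settings tried. AT2G43580 did as well, but it passed the filter through A. halleri alone, so its call supports nothing. On the scale of the hybridization controls the 5 higher genes were again called, AT2G43620 was not, and AT4G19720 did not pass the filter. Of all 16522 probe sets tested on that scale, 2741 were called higher and 488 lower. With scale class as a block 3 were called higher and 1 lower, and the calls of AT1G02360, AT4G01700, AT2G43620 and AT4G19720 were lost. The 1 gene called lower in that setting is thus not among the 7 calls reported here.

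**Figure D3:**
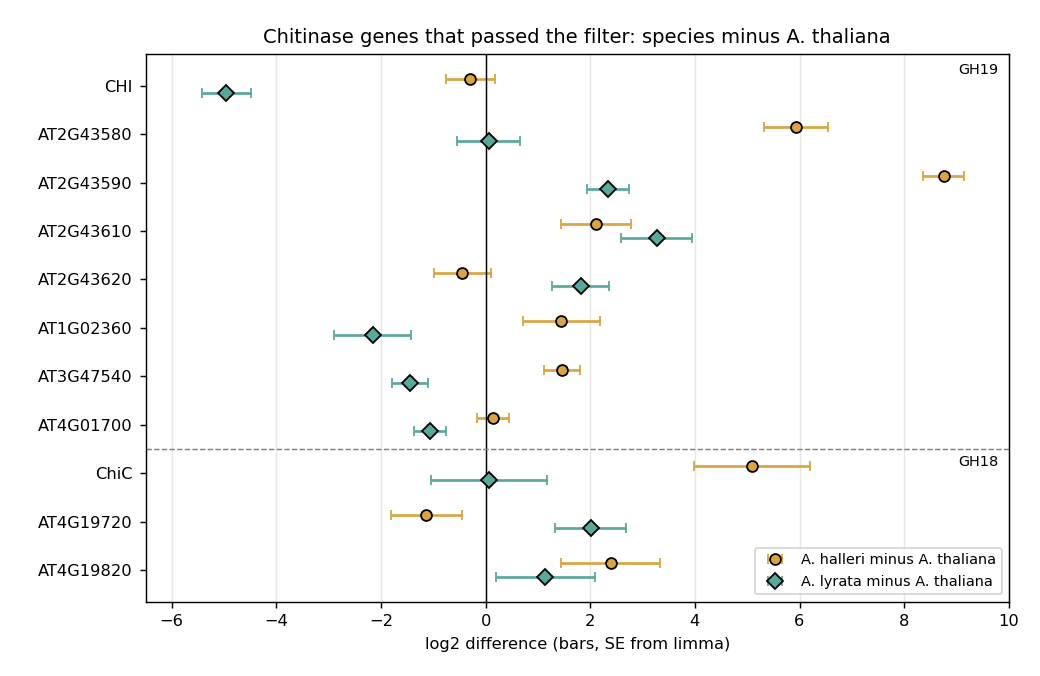
Log2 difference from A. thaliana, with SE bars from limma, of the 11 chitinase genes that passed the filter, for A. halleri (circles) and A. lyrata (diamonds), GH19 genes above the dashed line and GH18 genes below it. CHI is near 0 in A. halleri and at -4.96 in A. lyrata, ChiC is at 5.09 in A. halleri and near 0 in A. lyrata, and AT2G43590 is at 8.76 in A. halleri.

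The hybrids showed where leaves with both genomes lay between the parents. CHI in the A. halleri hybrid, at 738 and 1321, was below all 4 arrays of its parents. Its log2 difference was -0.93 ± 0.47 from A. halleri, -1.22 ± 0.47 from A. thaliana and -1.08 ± 0.41 from the mid-parent level, the arithmetic mean of the parents. The difference from A. halleri turned to 0.12 on the scale of the hybridization controls, and that from the mid-parent level was then -0.89.

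CHI in the A. lyrata hybrid was no higher than in A. lyrata, although A. thaliana, its other parent, had the highest level. The hybrid arrays, at 17.8 and 52.6, stood at 1.46% and 4.32% of the mid-parent level of 1218. Among the 1542 probe sets at least 4-fold lower in A. lyrata than in A. thaliana, the hybrid arrays had medians of 73.0% and 86.0% of mid-parent, and the 25th and 75th percentiles of these probe sets, by the mean of both arrays, were 35.1% and 125%. That set was not matched to CHI in how far apart the parents were, on which a percent of a linear mean depends. The log2 difference of CHI from mid-parent was -4.88 ± 0.46 (29.4-fold), and within the unscaled class it was -4.58. With the mid-parent level taken as the mean of log2 levels it was -3.35 ± 0.41. From A. thaliana the hybrid differed by -5.83 ± 0.47 (56.9-fold), and from A. lyrata by -0.87 ± 0.47, with both hybrid arrays below both A. lyrata arrays. That last difference was -0.025 on the scale of the hybridization controls and -0.27 without hybrid replicate 1.

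On the linear scale, ChiC in the A. halleri hybrid lay far nearer to A. thaliana than to A. halleri. The hybrid arrays, at 284 and 206, stood at 20.5% and 14.9% of the mid-parent level of 1384, and at 8.59% and 5.66% of the way up from the A. thaliana to the A. halleri level. For the 1695 probe sets at least 4-fold higher in A. halleri than in A. thaliana, the medians were 70.0% and 75.4% of mid-parent and 30.2% and 32.9% of the way. Those probe sets were not matched to ChiC in how far apart the parents were, so the percents are not like for like. ChiC differed by -3.11 ± 1.11 (8.64-fold) from A. halleri and by 1.98 ± 1.11 (3.93-fold) from A. thaliana, and neither pair of groups overlapped. Its log2 difference from mid-parent was -2.15 ± 1.09 (4.45-fold). That value was -1.19 without A. halleri replicate 1, -1.17 on the scale of the hybridization controls and -0.57 ± 0.96 with the mean of log2 levels as mid-parent.

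ChiC in the A. lyrata hybrid, at 4.14 and 129, overlapped both parents, with log2 differences of -0.63 ± 1.11 from A. lyrata, -0.57 ± 1.11 from A. thaliana and -0.60 ± 0.96 from mid-parent. These values give no order among the 3 groups. Between the hybrids, CHI was higher in the A. halleri hybrid by 4.61 ± 0.47 (24.4-fold) and ChiC by 2.55 ± 1.11. The ChiC value was 0.86 without A. lyrata hybrid replicate 1. The deviation from mid-parent of the A. halleri hybrid, minus that of the A. lyrata hybrid, was 3.79 ± 0.51 for CHI and -1.55 ± 1.45 for ChiC.

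AT2G43580 and AT2G43590 resembled ChiC in the A. halleri hybrid. Their hybrid arrays stood at 20.1% and 12.0%, and at 15.9% and 14.5%, of the mid-parent level. AT2G43590 was called lower than mid-parent, at -2.60 ± 0.39 (adjusted p = 0.0251), and AT2G43580, at -2.47 (adjusted p = 0.0903), was not called. The call of AT2G43590 was lost in 8 of 22 other settings, and its sign turned, to 0.78, with the mean of log2 levels as mid-parent. AT2G43620, which lay above both parents, was called higher than mid-parent, at 2.58 ± 0.48 (adjusted p = 0.0439). The filter favoured this call, and it was lost in 16 of 21 other settings. The calls of AT2G43590 and AT2G43620 were the only ones among the 9 genes in this comparison, 1 higher and 1 lower. Over all probe sets 1.09% were called, 0.396% higher and 0.69% lower. The parents were at least 4-fold apart for AT2G43610 and AT4G19820 as well, and there the hybrid arrays stood at 106% and 110%, and at 53.5% and 8.02%.

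**Figure D4:**
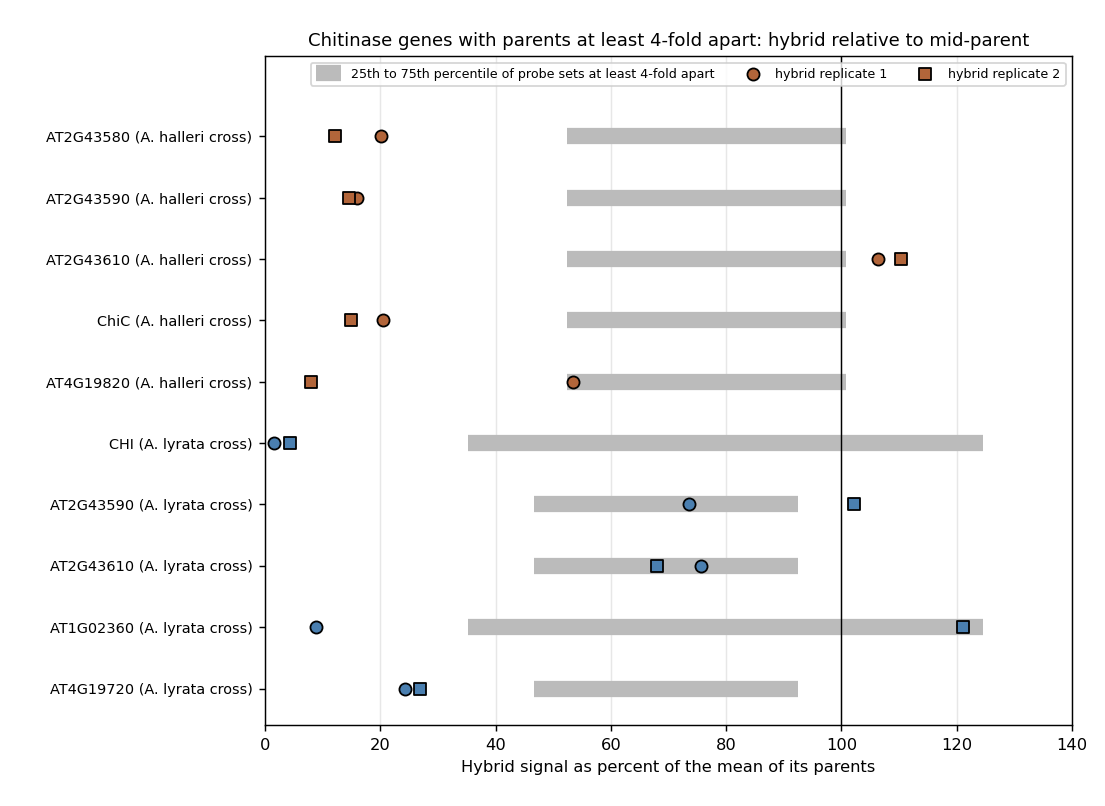
Signal of each hybrid array as a percent of the mean of its parents (circles, replicate 1; squares, replicate 2), for every chitinase gene past the filter whose parents were at least 4-fold apart, beside a grey bar from the 25th to the 75th percentile of all probe sets with parents that far apart in the same direction. ChiC, AT2G43580 and AT2G43590 in the A. halleri cross and CHI in the A. lyrata cross lie at or below 20.5%, left of their grey bars, which start at 52.4% and 35.1%. AT4G19720 in the A. lyrata cross, at 24.3% and 26.9%, also lies left of its bar, which starts at 46.7%. The bars are not matched to each gene in how far apart its parents were, on which a percent of a linear mean depends.

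Against its own parents, the A. halleri hybrid had 1 of the 9 other chitinase genes called higher and 2 lower than in A. halleri, with 15.1% of all probe sets called (8.76% higher, 6.3% lower), and 3 called higher and 0 lower than in A. thaliana, with 6% called (4% higher, 2% lower). AT2G43590 was lower than in A. halleri by 12.1-fold, at -3.60 ± 0.39 (adjusted p = 0.000653), and higher than in A. thaliana by 35.7-fold, at 5.16 ± 0.39 (adjusted p = 0.000262). AT2G43580 was lower than in A. halleri, at -3.44 ± 0.61 (adjusted p = 0.00659), and AT2G43620 higher, at 2.82 ± 0.55 (adjusted p = 0.0104). The other calls above A. thaliana, of AT2G43580 (2.49, adjusted p = 0.0430) and AT2G43620 (2.37, adjusted p = 0.0374), were lost in 18 and 15 of 20 other settings.

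In the A. lyrata hybrid, the GH19 gene AT4G01700 lay below A. thaliana, as CHI did. Its signals were 287 and 276 in the hybrid, 482 and 512 in A. lyrata, and 1216 and 903 in A. thaliana, with no overlap between groups. It was called lower than A. thaliana, at -1.86 ± 0.31 (adjusted p = 0.00689), and lower than mid-parent, at -1.43 ± 0.27 (adjusted p = 0.0209). The second call was lost in 4 of 22 other settings, the removal of either hybrid array among them. It was the only one of the 9 genes called against mid-parent, with 5.39% of all probe sets called, 1.67% higher and 3.72% lower. With parents at least 4-fold apart, AT4G19720 stood at 24.3% and 26.9% of mid-parent on the hybrid arrays. AT2G43590 stood at 73.6% and 102%, AT2G43610 at 75.7% and 68.1%, and AT1G02360 at 8.88% and 121%. Against A. thaliana 1 was called higher, AT2G43590 at 1.42 (adjusted p = 0.0463), and 1 lower, with 11.6% of all probe sets called, 6.6% higher and 4.95% lower. Against A. lyrata 1 was called higher, AT3G47540 at 1.31 (adjusted p = 0.0277), and 1 lower, AT4G19720 at -2.21 (adjusted p = 0.0461), with 20.6% called, 10.3% higher and 10.2% lower. The calls of AT2G43590 and AT4G19720 were lost in 15 of 21 and 16 of 18 other settings. That of AT3G47540 was lost in 7 of 21, leaving out either array of A. lyrata or of its hybrid among them.

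Between the hybrids, AT2G43590 was the only other chitinase gene called, higher in the A. halleri hybrid by 3.73 ± 0.39 (13.3-fold, adjusted p = 0.00154), with 2.65% of all probe sets called, 1.93% higher and 0.72% lower. For the difference between the deviations from mid-parent, limma called 0 of the 9 genes, 4 of them at an unadjusted p under 0.05, with 1.04% of all probe sets called, 0.738% higher and 0.3% lower.

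Over the 10 arrays, the log2 signals of CHI and ChiC had a Pearson r of 0.573. The arrays are 5 groups of 2, so each r here describes mainly how groups are ordered. Among the other chitinase genes that passed the filter, AT4G01700 was most like CHI, with an r of 0.922, followed by AT1G02360 with 0.847. Those most like ChiC were AT2G43580 and AT2G43590, each with 0.856, and AT1G02360 with 0.810. CHI and its neighbours AT2G43580 and AT2G43590 had r values of 0.516 and 0.380, and CHI and AT2G43610 one of -0.55.

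Among the 9114 named genes that passed the filter, the 5 most like CHI were AT3G57280 (r = 0.976), AT2G46600 (0.971), AT3G15760 (0.967), AT3G46600 (0.953) and AT2G18690 (0.951). AT3G57280 had signals of 1553 and 1632 in the A. halleri hybrid, 563 and 574 in the A. lyrata hybrid, 1735 and 1743 in A. halleri, 837 and 753 in A. lyrata, and 1798 and 2107 in A. thaliana. As for CHI, the A. lyrata hybrid was below both of its parents. AT2G18690 also had a wide range, with 42.2 and 23.0 in the A. lyrata hybrid and 47.2 and 155 in A. lyrata, against 1682 and 3349 in A. thaliana.

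The 5 genes most like ChiC were AT5G25270 (r = 0.933), AT3G58600 (0.928), AT1G17410 (0.924), SCPL49 (AT3G10410, 0.922) and AT3G32090 (0.914). SCPL49, a serine carboxypeptidase-like gene, had signals of 3291 and 3154 in the A. halleri hybrid, 733 and 1181 in the A. lyrata hybrid, 8801 and 10646 in A. halleri, 1128 and 1330 in A. lyrata, and 1618 and 1312 in A. thaliana. It too was highest in A. halleri and second in the hybrid of A. halleri, with the other groups overlapping in part.

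Lists of chitin signalling, beta-1,3-glucanases, salicylic acid defence, jasmonate and ethylene defence and leaf senescence held 86 further genes. Of these 11 were measured and 10 passed the filter, so that most of each list was not analysed here. In A. halleri against A. thaliana 2 were called higher and 2 lower, in A. lyrata against A. thaliana 2 higher and 3 lower, and in A. halleri against A. lyrata 0, with 2 at an unadjusted p under 0.05 by limma. Over all probe sets 39.7%, 43% and 15.5% were called in these comparisons, so counts of 4 and 5 among 10 genes lie near the overall share. WRKY53, a transcription factor gene of leaf senescence that chitin also induces, did not follow CHI in A. halleri. It had signals of 713 and 272 in the A. halleri hybrid, 95.0 and 123 in the A. lyrata hybrid, 129 and 136 in A. halleri, 79.7 and 137 in A. lyrata, and 955 and 1624 in A. thaliana. It was called lower than in A. thaliana in A. halleri (-3.14 ± 0.49, adjusted p = 0.00143), in A. lyrata (-3.46 ± 0.49, adjusted p = 0.00076) and in the A. lyrata hybrid (-3.42 ± 0.49, adjusted p = 0.00406), and lower than mid-parent in the A. lyrata hybrid (-2.54 ± 0.47, adjusted p = 0.0195). This last call was lost without either A. lyrata hybrid array. SAG101, a gene of the EDS1 immune pathway, was lower than in A. thaliana in A. halleri (-2.95 ± 0.54, adjusted p = 0.00305) and in A. lyrata (-2.56 ± 0.54, adjusted p = 0.00509). SAG101 passed the filter through A. thaliana and the A. halleri hybrid alone. Calls of it as lower in the other groups were thus favoured by the filter and support nothing. For WRKY53 and SAG101, less transcript in A. halleri and A. lyrata and weaker binding to the probes cannot be told apart.

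AT5G18610 (PBL27), a receptor-like cytoplasmic kinase that links the chitin receptor to a MAP kinase cascade, was higher than in A. thaliana in A. halleri (3.84 ± 0.55, adjusted p = 0.000954) and in A. lyrata (3.29 ± 0.55, adjusted p = 0.00175). Its signals were 285 and 387 in A. halleri and 267 and 187 in A. lyrata, against 4.59 and 31.8 in A. thaliana. AT5G18610 passed the filter through A. halleri and A. lyrata alone. Calls of it as higher in these species, also against the hybrids, were thus favoured by the filter and support nothing. PDF1.2b, a jasmonate and ethylene responsive defensin gene whose probes may also bind related defensin transcripts, was higher than in A. thaliana in A. halleri (7.37 ± 0.56, adjusted p = 4.1e-05) and in A. lyrata (6.55 ± 0.56, adjusted p = 6.3e-05). It was also higher in the A. halleri hybrid (5.99 ± 0.56, adjusted p = 0.000818) and in the A. lyrata hybrid (4.81 ± 0.56, adjusted p = 0.00172). PDF1.2, its close relative, was called in none of the 11 comparisons, with signals of 166 and 191 in A. halleri and 468 and 177 in A. thaliana. The only glucanase gene measured, AT4G16260, did not pass the filter.

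The same 10 genes were compared in the hybrids. The A. halleri hybrid had 2 higher and 1 lower than in A. halleri, 1 higher and 0 lower than in A. thaliana, and 0 called against mid-parent, with 1 at an unadjusted p under 0.05 by limma. Over all probe sets 15.1%, 6% and 1.09% were called in these comparisons. WRKY53 (1.67, adjusted p = 0.0485) and SAG101 (1.85, adjusted p = 0.0478) were the 2 higher than in A. halleri and AT5G18610 (-1.96, adjusted p = 0.0412) the 1 lower, and these calls were lost in 11, 10 and 13 of 21 other settings. The A. lyrata hybrid had 1 gene lower than in A. lyrata, AT5G18610 (-1.998, adjusted p = 0.0324), lost in 13 of 21 other settings. It had 1 gene higher and 3 lower than in A. thaliana, and 1 lower than mid-parent, where 20.6%, 11.6% and 5.39% of all probe sets were called against A. lyrata, A. thaliana and mid-parent. Besides PDF1.2b and WRKY53, those called against A. thaliana were SAG101 (-2.15, adjusted p = 0.0335) and BIK1 (-1.38, adjusted p = 0.0409), a receptor-like cytoplasmic kinase gene of immune signalling, with calls lost in 8 and 15 of 21 other settings. Between the hybrids none of the 10 was called, with 3 at an unadjusted p under 0.05 by limma, and 0 were called for the difference between deviations, with 1 at an unadjusted p under 0.05. Over all probe sets 2.65% and 1.04% were called in these comparisons, so counts of 0 among 10 genes lie near the overall share.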

How the data were processed

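RNA of mature leaves from 10 samples in 5 groups was measured on Affymetrix ATH1 arrays, with biotin-labelled cRNA made from 500 ng of total RNA per the labels' protocols. The values deposited by the authors are linear intensity values, with a signal for each probe set, made with GCOS and MAS5 per the submitters' processing notes. Versions and a genome build are not stated there. Groups come from the sample titles. No depth exists for arrays, and their number, 2 per group, limits the precision.

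Each array was rescaled to a mean of 500 with 2% trimmed at each end, since only 5 of the 10 deposited arrays had that mean. After 64 control probe sets were left out, 16656 of 22746 probe sets (73.2%) were tested, those with a mean log2 signal in at least 1 group at or above the 40th percentile of all values (signal 104). In R 4.3.3, limma 3.58.1 (lmFit, eBayes with trend = TRUE) was fitted to log2(signal + 9.24), with the 10th percentile as offset, over all 10 arrays (residual df 5, prior df 4.72). Mid-parent levels are arithmetic means on the linear scale with delta-method SEs. Adjusted p-values are Benjamini-Hochberg values over all probe sets tested in a comparison, called under 0.05, for 11 comparisons. The fit was tested on simulated data with known changes.

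Gene names were read from a platform annotation held in part, in which 13513 probe sets had a single gene; symbols and gene order came from RefSeq genes of TAIR10.1, without coordinates. CHI, ChiC and all gene lists were chosen with earlier results of these data known, so no count is independent support. Named genes are all measured chitinases, up to 2 called genes per other list and comparison by adjusted p, PDF1.2, and the 5 genes with the highest Pearson r with CHI and with ChiC; AT2G18690 and SCPL49 were described further after their values were seen. The check for shared replicate numbers gave correlations of deviations between -0.13 and 0.26 over 10 pairs of groups, 1 of them over 0.1. With 2 arrays per group this cannot show whether the numbers pair the samples, and they were not used as pairs in the fit reported. Alternatives were spike-in and quantile scaling, other offsets and filters, scale class and replicate number as blocks, fits on the compared groups alone, another mid-parent level, a stricter threshold and leaving out each array. Sequences were not used here.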

Additional observations from a re-analysis of the deposited data

How the results depend on the processing

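The levels of CHI and ChiC and the counts of called genes in the defence lists (chitinases other than CHI and ChiC included) were recomputed under other settings. A level was held to stay if it moved by less than the residual SD of its gene. A count was held to stay if it was equal to the reported count or within 1.5 times of it. Of 488 such values 353 stayed by these rules, 132 moved further, and 3 levels turned sign from a reported value larger than that SD. Smaller reported differences also changed sign in some settings, as the ranges below show for ChiC. Of 1049 repeats of single-gene calls 780 stayed called, 268 were lost and 1 turned sign. The cause of each change was not tested, except that a stricter threshold by construction calls fewer genes. Each gene had a single probe set of its own, so the planned use of other probe sets gave no value.

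On the scale of the hybridization controls CHI differed by -1.60 for A. halleri minus A. thaliana, -6.67 for A. lyrata minus A. thaliana, 0.12 (sign turned) for the A. halleri hybrid minus A. halleri, -0.025 for the A. lyrata hybrid minus A. lyrata, -6.70 for that hybrid minus A. thaliana, 5.21 between the hybrids, -5.71 for the A. lyrata hybrid minus mid-parent and 4.82 for the difference of deviations. ChiC was then at 3.88 for A. halleri minus A. thaliana, -1.49 for A. lyrata minus A. thaliana and -0.38 for the difference of deviations. The counts became 1 for the A. lyrata hybrid against A. lyrata, 10 against A. thaliana, 5 between the hybrids, 1 for the A. halleri hybrid against mid-parent and 2 for the difference of deviations. Of all 16522 probe sets tested on that scale, 5223 were called higher and 168 lower for the A. lyrata hybrid against A. lyrata. Against A. thaliana 352 were called higher and 4067 lower, and between the hybrids 1105 and 73. For the A. halleri hybrid against mid-parent these numbers were 175 and 75, and for the difference of deviations 353 and 40. With the offset at the 25th percentile CHI was at 4.17 for A. halleri minus A. lyrata, -4.46 for A. lyrata minus A. thaliana, -4.98 for the A. lyrata hybrid minus A. thaliana, 3.79 between the hybrids, -4.05 against mid-parent in the A. lyrata hybrid and 2.99 for the difference of deviations, where 2 genes were called. With scale class as a block CHI was at 4.04 for A. halleri minus A. lyrata, 3.99 between the hybrids and 3.31 for the difference of deviations, and the counts were 3 between the hybrids, 1 and 4 against mid-parent in the A. halleri and A. lyrata hybrid, and 1 for the difference of deviations. With the mean of log2 levels as mid-parent ChiC was at -0.57 in the A. halleri hybrid, CHI at -3.35 in the A. lyrata hybrid, the differences of deviations at 2.28 for CHI and 0.034 (sign turned) for ChiC, and AT2G43590 at 0.78 (sign turned) in the A. halleri hybrid.

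The replicate numbers were not used as pairs in the fit reported. With the replicate block the count was 2 for the A. halleri hybrid against A. thaliana and 1 against mid-parent, and other counts stayed within 1.5 times. For the A. halleri hybrid against A. thaliana, reported as 4, the count was also 2 under quantile normalization, an offset of 1, no filter, a filter at the 60th percentile, the groups compared alone and a threshold of 0.01. Against mid-parent in that hybrid (reported as 2) it was 1 under quantile normalization, an offset of 1, no filter and the 60th percentile, and 0 with the groups compared alone and at 0.01. Against A. halleri (reported as 6) it was 3 with an offset of 1 and with no filter, 2 at 0.01, and 10 with the groups compared alone and within the scaled class, a setting chosen after seeing the data. For the A. lyrata hybrid against A. lyrata (reported as 3) it was 1 under quantile normalization and an offset of 1 and 0 at 0.01, against A. thaliana (reported as 6) 3 with no filter and at 0.01 and 2 with the groups compared alone, and against mid-parent (reported as 2) 1 with the groups compared alone and 0 at 0.01. Between the hybrids (reported as 1) it was 2 with the filter at the 60th percentile and 4 with the groups compared alone. At 0.01 the counts were 3 for A. halleri against A. lyrata and 7 for A. lyrata against A. thaliana.

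Leaving out each array in turn gave counts of 4 to 8 for A. halleri against A. lyrata, 6 to 9 for A. halleri against A. thaliana, 7 to 11 for A. lyrata against A. thaliana, 2 to 7, 2 to 5 and 0 to 3 for the A. halleri hybrid against A. halleri, A. thaliana and mid-parent, 0 to 4, 2 to 8 and 0 to 4 for the A. lyrata hybrid against A. lyrata, A. thaliana and mid-parent, 1 to 3 between the hybrids and 0 to 2 for the difference of deviations. A group left with 1 array is assumed to vary like the others. CHI stayed at 4.01 to 5.21 between the hybrids, -1.47 to -0.27, -6.43 to -5.23 and -5.47 to -4.28 for the A. lyrata hybrid against A. lyrata, A. thaliana and mid-parent, and 3.20 to 4.39 for the difference of deviations. ChiC ranged from 3.82 to 6.23 for A. halleri minus A. lyrata, -1.14 to 1.26 for A. lyrata minus A. thaliana, 0.86 to 4.23 between the hybrids, -2.32 to 1.05, -2.26 to 1.11 and -2.29 to 1.08 for the A. lyrata hybrid against A. lyrata, A. thaliana and mid-parent, and -3.23 to 0.13 for the difference of deviations, positive without A. lyrata hybrid replicate 2.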
